A study of Mus musculus with 15 samples.

Results

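The genes described here are 33 genes of glycolysis and of the response to HIF-1, chosen by symbol from the 78317 gene identifiers of the count table. All 33 were found there. They are 22 genes of glucose uptake, glycolysis and lactate export (*Slc2a1*, *Hk1*, *Hk2*, *Hk3*, *Gpi1*, *Pfkl*, *Pfkp*, *Pfkm*, *Pfkfb3*, *Pfkfb4*, *Aldoa*, *Aldoc*, *Tpi1*, *Gapdh*, *Pgk1*, *Pgam1*, *Eno1*, *Pkm*, *Ldha*, *Slc16a1*, *Slc16a3* and *Pdk1*) and 11 genes that encode HIF-1α, its hydroxylases and other products of its target genes (*Hif1a*, *Egln1*, *Egln3*, *Vegfa*, *Bnip3*, *Adm*, *Ankrd37*, *Ndrg1*, *P4ha1*, *Higd1a* and *Mxi1*). The rule used gene names and no measured value, but the genes were chosen with earlier results of these data known.

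Glycolysis splits glucose into pyruvate in the cytosol, and in activated macrophages much of that pyruvate is reduced to lactate and exported. HIF-1 is a transcription factor made of HIF-1α, which prolyl hydroxylases mark for degradation when oxygen is present, and a constitutive partner, ARNT. It raises transcription of glucose transporters, glycolytic enzymes, the kinase that keeps pyruvate out of the mitochondria, and genes of mitophagy and vessel growth, and its level is largely set after transcription, so that *Hif1a* mRNA is not a measure of its activity.

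MH-S cells, an SV40-transformed alveolar macrophage line of the mouse, were kept for 24 h in medium alone (M0), with LPS (1 µg/mL) plus IFN-γ (20 ng/mL) for M1, with IL-4 (20 ng/mL) for M2, or with calcium phosphate (CaP) or SiO2 microrods at 0.1 mg/mL, with 3 wells in each of the 5 groups. Both rod types carried the same alginate, protamine and carboxymethyl chitosan, and each of their wells held a separately prepared particle batch. All wells held 1 cell passage of 1 line, so the p-values cover the spread between wells and particle batches but not between passages or animals. M1 and M2 served as reference states against which the response to the microrods was read.

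Total counts lay between 8459643 and 68750050 per library. Of 8 macrophage markers, 7 were above 1 CPM (counts scaled for library size with TMM factors) in all 15 libraries, with *Mertk* at no more than 0.501 CPM. Of 8 markers of alveolar macrophages only *Itgax* was above 1 CPM in all libraries, and *Siglecf*, *Chil3*, *Pparg* and *Car4* were at or below 0.658 CPM in all, so the labelled cell type was not matched by its defining transcripts. Their summed level was 4.75 to 6.14 CPM in M0 and 29.6 to 35.6 CPM in M2, where *Mrc1* made up most of it. Of 12 markers of epithelial, stromal, endothelial and lymphoid cells, 8 were at or under 3 counts in each library. The M1 markers *Il1b*, *Nos2* and *Il6* summed to 417 to 513 CPM in M1 and to at most 3.56 CPM elsewhere, and the M2 markers *Arg1*, *Clec10a* and *Ccl24* to 1587 to 1958 CPM in M2 and to at most 37.1 CPM elsewhere. Levels are relative to all mRNA of a well, so fewer cells and less RNA per cell cannot be told apart.

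HIF-1 binds the letters ACGTG and GCGTG. The window from 250 to 21 bases before the transcription start was read for 32 of the 33 genes from RefSeq (GRCm38.p6), and *Ndrg1* had no entry. At least 1 window of 30 of the 32 genes (93.8%) held either motif on either strand, against 38.9% of 27025 mouse genes. ACGTG, the stricter of the motifs, was found in 19 of the 32 (59.4%) and in 17.0% of all genes. A gene with more starts has more windows and so more room for a match. Counted by window, either motif was in 81.25% of the 48 windows of these genes and in 36.0% of all 32851 windows. ACGTG was in 47.9% and 15.1%. The windows of these genes were also richer in CG pairs, with a median of 11.5 per window against 5 in all 32851 windows, and each motif holds a CG pair. *Tpi1* and *Gpi1* were the 2 genes without a match. The windows below belong to genes on which the comparisons turn, with every match in capitals and adjoining matches merged.
*Ankrd37*, chr8:45999871-46000100, minus strand: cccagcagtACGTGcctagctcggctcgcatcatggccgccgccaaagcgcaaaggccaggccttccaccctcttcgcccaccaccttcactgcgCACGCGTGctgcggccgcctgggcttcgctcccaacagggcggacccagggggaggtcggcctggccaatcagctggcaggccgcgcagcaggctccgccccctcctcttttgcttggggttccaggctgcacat
*Bnip3*, chr7:138909527-138909756, minus strand: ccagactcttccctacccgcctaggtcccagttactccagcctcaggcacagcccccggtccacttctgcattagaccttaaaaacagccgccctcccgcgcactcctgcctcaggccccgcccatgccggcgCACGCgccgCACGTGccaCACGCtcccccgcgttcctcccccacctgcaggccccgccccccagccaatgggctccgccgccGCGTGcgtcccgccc
*Adm*, chr7:110627407-110627636, plus strand: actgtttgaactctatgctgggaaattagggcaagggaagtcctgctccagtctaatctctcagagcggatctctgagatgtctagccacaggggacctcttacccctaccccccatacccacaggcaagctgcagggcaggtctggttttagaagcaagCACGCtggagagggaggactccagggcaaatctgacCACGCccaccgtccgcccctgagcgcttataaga
*Pfkfb3*, second of 2 starts, chr2:11502111-11502340, minus strand: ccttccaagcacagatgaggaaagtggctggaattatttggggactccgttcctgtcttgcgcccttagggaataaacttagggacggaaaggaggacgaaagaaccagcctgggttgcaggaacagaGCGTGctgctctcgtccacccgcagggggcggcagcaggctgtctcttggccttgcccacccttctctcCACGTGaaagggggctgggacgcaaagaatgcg
*Bnip3* held 4 separate matches, at 117, 108, 99 and 35 bases before the start. *Ankrd37* held 2, of which 1 was made of a pair of overlapping motifs, and both matches of *Adm* were GCGTG read on the other strand. Of the 2 matches in the printed window of *Pfkfb3*, the nearer to the start read CACGTG, which holds ACGTG on each strand. The window of its other start held 1 match, an ACGTG at 60 bases before that start. A match describes these letters only and is no measure of binding.

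The genes differed widely in level. Per kilobase of transcript, *Ldha*, which reduces pyruvate to lactate, stood at 1304 CPM per kb in M0 and the enolase *Eno1* at 1297, followed by *Pgk1* (918), *Gapdh* (894) and *Tpi1* (714), which catalyse the middle steps. The M0 libraries ranged from 1597 to 3042 CPM for *Ldha* and from 1632 to 3563 CPM for *Eno1*, so these neighbours did not differ beyond their spread. *Pkm* (585), *Pgam1* (479), *Bnip3* (407) and *Gpi1* (306) came next. At the low end were *Pfkfb3* (0.335 CPM per kb), *Egln3* (0.832), *Vegfa* (1.13) and *Pfkfb4* (1.25), so that the enzymes that set fructose 2,6-bisphosphate, the strongest activator of phosphofructokinase, were measured on few counts. This order holds for the counts given to the named gene alone. With those of the near-identical copies described below, it was led by *Gapdh* (3400.1 CPM per kb), *Eno1* (1911), *Pgk1* (1659) and *Ldha* (1446). The map of levels by library shows which genes moved and in which libraries.

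**Figure D1:**
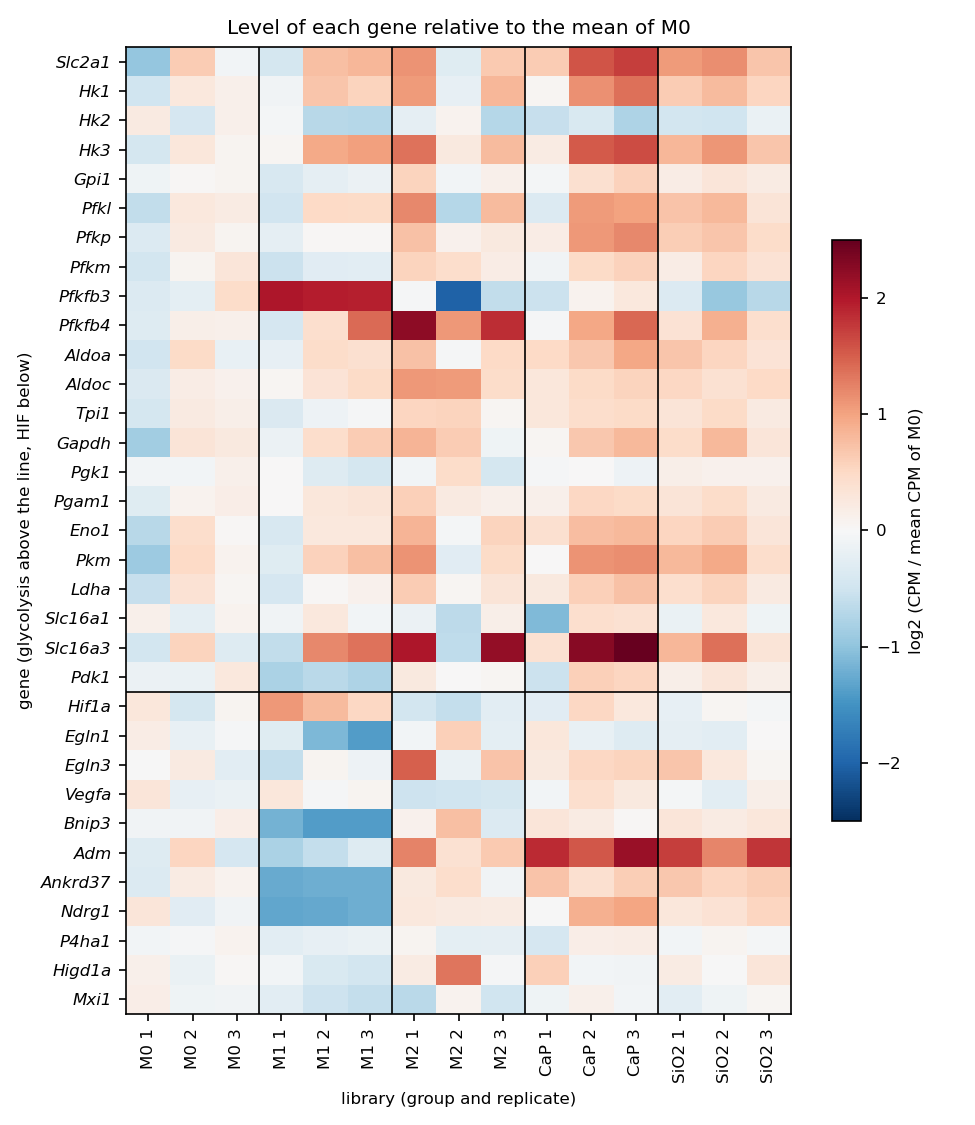
Level of the 33 genes (rows) in the 15 libraries (columns), as log2 of CPM over the mean CPM of M0, with red higher and blue lower. *Bnip3*, *Ankrd37* and *Ndrg1* are low in all M1 libraries, *Pfkfb3* is high there, *Adm* is high in all libraries of both rod types, and replicate 1 of M0, M1 and CaP and replicate 2 of M2 are paler or bluer than their partners over most glycolysis rows.

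Against M0, the M1 state raised a regulator of glycolysis and lowered 3 HIF-1 targets, and among the 33 genes no enzyme of the main pathway passed the test. *Hif1a* was called higher too, but most fits without 1 library lost that call. A gene was a differentially expressed gene (DEG) when edgeR's quasi-likelihood test gave a Benjamini-Hochberg adjusted p below 0.05 over all genes tested together with a log2 fold change beyond 0.5 in either direction. In M1 5 of 33 genes were DEGs, against 14.1% of the 16654 genes tested. Higher in M1 were 2 (9.70% of all genes) and lower were 3 (4.35%). The median log2 fold change was -0.04, beside -0.01 over all genes, at 0.22 for the 22 glycolysis genes and -0.46 for the 11 HIF genes.

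*Pfkfb3*, the kinase that makes fructose 2,6-bisphosphate, read 1.26, 1.37 and 2.20 CPM in M0 and 6.53, 6.29 and 6.22 CPM in M1. All M1 libraries were above all others, the rod and M2 libraries included, where the highest was 1.94 CPM. The log2 fold change was 2.08 (SE 0.32, edgeR adjusted p = 0.000605). *Hif1a* read 15.2, 9.24 and 13.2 CPM in M0 and 26.5, 21.7 and 18.0 CPM in M1, again without overlap. Its log2 fold change of 0.81 (SE 0.24) passed narrowly (edgeR adjusted p = 0.0399). The call was lost without M0 replicate 2 (0.62, edgeR adjusted p = 0.141), M0 replicate 3 (0.83, 0.0745), M1 replicate 1 (0.65, 0.132) or M1 replicate 2 (0.82, 0.0963), and in a fit of only the 6 M0 and M1 libraries (0.75, 0.103). Same-numbered M0 and M1 libraries deviated together weakly, though same-numbered libraries over all groups did not (median correlation -0.00509). With the replicate number as a block the edgeR adjusted p was 0.0666 in the model of all 15 libraries and 0.0566 in a fit of the 6.

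The 3 genes that fell are targets of HIF-1 outside glycolysis. *Bnip3*, a receptor of mitophagy on the outer mitochondrial membrane, read 671, 672 and 799.8 CPM in M0 and 315, 273 and 271 CPM in M1. *Ankrd37*, an ankyrin repeat protein, read 129.8, 188 and 173 CPM in M0 and 68.7, 70.1 and 70.2 CPM in M1. *Ndrg1*, a stress-responsive protein that is induced in hypoxia, read 109.8, 73.0 and 83.3 CPM in M0 and 36.0, 36.5 and 38.0 CPM in M1. In each case every M1 library lay below every library of the other 4 groups, and the M1 libraries lay close together.

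The log2 fold changes were -1.32 for *Bnip3* (SE 0.22, edgeR adjusted p = 0.000992), -1.23 for *Ankrd37* (SE 0.17, edgeR adjusted p = 0.000294) and -1.27 for *Ndrg1* (SE 0.23, edgeR adjusted p = 0.00209). These and *Pfkfb3* remained DEGs in all 6 fits that left out 1 library. An exon of *Ankrd37* overlaps *Ufsp2* on the other strand, whose 39774 counts stand beside 68225 of *Ankrd37*, and these libraries do not mark strand. *Ufsp2* itself was not a DEG in M1 (edgeR adjusted p = 0.381).

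**Figure D2:**
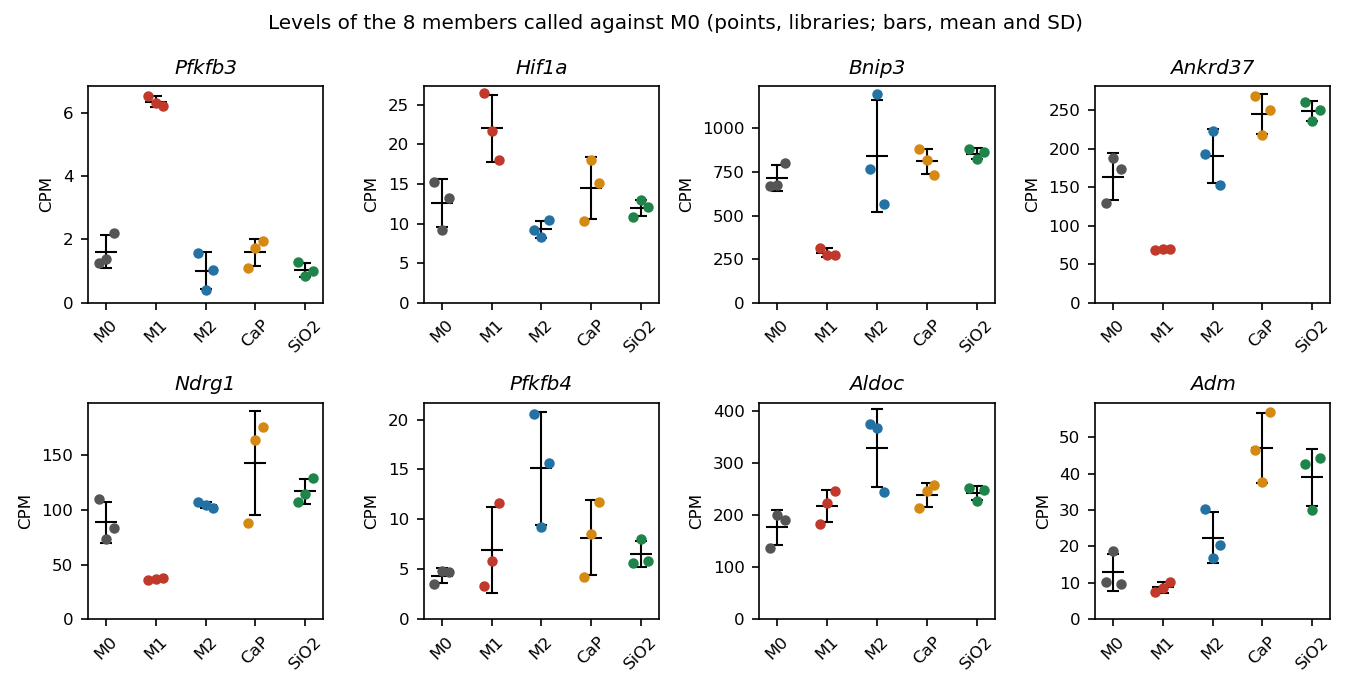
CPM of the 8 genes that were DEGs in at least 1 comparison with M0, with each library as a point and the mean and SD (n = 3) as bars, on axes that start at 0. *Pfkfb3* stands apart in M1 at 6.22 to 6.53 CPM, *Bnip3*, *Ankrd37* and *Ndrg1* are lowest in M1, *Pfkfb4* and *Aldoc* are highest on average in M2, and *Adm* is highest in both rod groups.

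Close to the threshold in M1 were *Pdk1*, the kinase that blocks pyruvate dehydrogenase, and *Egln1*, the main oxygen-sensing hydroxylase of HIF-1α. *Pdk1* read 68.6, 68.2 and 91.7 CPM in M0 and 44.1, 47.7 and 44.7 CPM in M1 (log2 fold change -0.74, SE 0.24, edgeR adjusted p = 0.0575). *Egln1* read 31.1, 24.1 and 26.8 CPM in M0 and 22.2, 12.6 and 10.3 CPM in M1 (log2 fold change -0.86, SE 0.29, edgeR adjusted p = 0.0630). Neither overlapped between the groups, and neither was a DEG in the main test. With DESeq2 both were (adjusted p = 0.0199 and 0.0356), and so were they with the replicate block in the fit of the 6 libraries (edgeR adjusted p = 0.0296 and 0.0320). In that fit *Hk3*, the myeloid hexokinase, was a DEG too, with 37.2, 61.7 and 53.0 CPM in M0 and 52.4, 97.4 and 103 CPM in M1 (log2 fold change 0.65, edgeR adjusted p = 0.0367, against 0.226 in the main fit), which made 7 DEGs among the 33.

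Among the enzymes and transporters, *Ldha* was at 2238 ± 405 CPM in M1 and 2367 ± 728 in M0 (SD, n = 3), *Eno1* at 2771 ± 686 and 2629 ± 967, and *Pkm*, the last kinase of the pathway, at 1893 ± 656 and 1422 ± 629. These groups overlapped, as did those of the glucose transporter *Slc2a1* (258 ± 107 and 184 ± 95.6 CPM) and the lactate exporter *Slc16a3* (183 ± 103 and 99.3 ± 41.2 CPM). For *Pkm*, *Gapdh*, *Slc2a1* and *Pfkl* the M1 library was above the M0 library of the same number in all 3 pairs, and none of these 4 was a DEG with the replicate block. The same order was seen for *Hk1*, *Hk3*, *Aldoc*, *Pgam1* and *Pfkfb3*. It was reversed in all 3 pairs for *Hk2*, *Gpi1*, *Pfkm* and *Pdk1*. Of these further genes, *Pfkfb3*, *Hk3* and *Pdk1* were DEGs with the block in the fit of the 6 libraries. The phosphofructokinases *Pfkl*, *Pfkp* and *Pfkm*, the aldolases *Aldoa* and *Aldoc*, and *Tpi1*, *Gapdh*, *Pgk1* and *Pgam1* overlapped between M1 and M0 too. The isomerase *Gpi1* did not, with 672, 751 and 793 CPM in M1 below 825, 903 and 922 CPM in M0 (edgeR adjusted p = 0.382). Of the other HIF genes, the hydroxylase *Egln3*, the vessel growth factor *Vegfa* and the mitochondrial *Higd1a* overlapped. The collagen hydroxylase subunit *P4ha1* (44.8 ± 1.47 CPM in M1 and 52.0 ± 2.77 in M0) and the MYC antagonist *Mxi1* (20.3 ± 2.46 and 27.8 ± 3.07 CPM) did not, with edgeR adjusted p = 0.434 and 0.151.

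In M2, 2 of the 33 genes were DEGs against M0, beside 4.13% of all genes. Both were higher (2.00% of all genes were higher and 2.13% lower). The median log2 fold change was 0.39, beside 0.07 over all genes, at 0.43 for the glycolysis genes and 0.21 for the HIF genes. *Pfkfb4*, the sister enzyme of *Pfkfb3*, read 3.50, 4.81 and 4.75 CPM in M0 and 20.5, 9.21 and 15.6 CPM in M2 (log2 fold change 1.85, SE 0.45, edgeR adjusted p = 0.0355). *Aldoc*, the brain-type aldolase, read 138, 200.5 and 190.1 CPM in M0 and 375, 368 and 243 CPM in M2 (log2 fold change 0.90, SE 0.20, edgeR adjusted p = 0.0184). The groups did not overlap for either gene.

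Both calls depended on single libraries. *Pfkfb4* kept its call only in the fit without M2 replicate 2, and its edgeR adjusted p was 0.181 without M0 replicate 1, 0.0710 without M0 replicate 2, 0.0863 without M0 replicate 3, 0.126 without M2 replicate 1 and 0.0989 without M2 replicate 3. *Aldoc* lost its call without M0 replicate 1 (edgeR adjusted p = 0.0951) and without M2 replicate 1 (0.0845). In a fit of only the 6 M0 and M2 libraries, neither was a DEG (0.0983 for *Pfkfb4* and 0.273 for *Aldoc*).

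The largest change in M2 that was no DEG was that of *Slc16a3*, with 71.8, 147 and 79.5 CPM in M0 and 402, 63.6 and 455 CPM in M2. Replicate 2 of M2 lay below all M0 libraries while the others lay far above them, and the log2 fold change of 1.63 (SE 0.72) had an edgeR adjusted p of 0.263. *Higd1a*, a mitochondrial protein that is induced in hypoxia, set the same library apart in the other direction, with 522, 1147 and 446 CPM in M2 against 495, 403 and 460.3 CPM in M0. The hexokinase *Hk3* (log2 fold change 0.88, SE 0.38, edgeR adjusted p = 0.248), *Egln3* (0.85, SE 0.33, 0.196) and *Adm* (0.80, SE 0.29, 0.160) were higher on average and overlapped between the groups. *Vegfa* was at 2.79 ± 0.0769 CPM in M2 and 3.88 ± 0.790 CPM in M0 without overlap (log2 fold change -0.51, SE 0.22, edgeR adjusted p = 0.260).

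Compared directly, M1 and M2 differed in 9 of the 33 genes, beside 16.1% of all genes. Higher in M1 were 2 (10.6% of all genes) and lower were 7 (5.47%), and the median log2 fold change was -0.42, beside -0.04 over all genes. This comparison shares its libraries with those against M0, so it is not a separate observation of the M1 values. *Pfkfb3* (log2 fold change 2.55, SE 0.33, edgeR adjusted p = 9.13e-05) and *Hif1a* (1.23, SE 0.25, 0.00345) were higher in M1. For *Hif1a* the M2 libraries read 9.14, 8.29 and 10.4 CPM, and the call held in all 6 fits without 1 library. That of *Pfkfb3* did too, although M2 replicate 2 held only 3 counts of it.

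Of the 7 that were lower in M1 than in M2, 5 belong to the HIF genes. *Adm*, the gene of the vasodilator peptide adrenomedullin, read 7.39, 8.48 and 10.3 CPM in M1 and 30.2, 16.7 and 20.3 CPM in M2 (log2 fold change -1.37, SE 0.30, edgeR adjusted p = 0.00684). *Bnip3* (-1.56, SE 0.22, edgeR adjusted p = 0.000192), *Ankrd37* (-1.44, SE 0.17, 5.14e-05) and *Ndrg1* (-1.50, SE 0.23, 0.000456) were also lower. These 4 held in all 6 fits without 1 library. *Egln1* (-0.99, SE 0.29, edgeR adjusted p = 0.0332) lost its call without M1 replicate 2 (0.125) and without M1 replicate 3 (0.133). *Pdk1* (-0.85, SE 0.24, edgeR adjusted p = 0.0288) and the muscle phosphofructokinase *Pfkm* (-0.75, SE 0.24, 0.0481) each kept theirs only in the fit without M2 replicate 2. Without each of the other 5 libraries in turn, the edgeR adjusted p was 0.0619 to 0.0880 for *Pdk1* and 0.0594 to 0.154 for *Pfkm*.

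The log2 fold changes with their standard errors, shown by gene for the 4 comparisons with M0, place most glycolysis genes to the right of 0 in M2 and in both rod groups and around 0 in M1. All 4 comparisons share the same 3 M0 libraries, so a low M0 library moves them together.

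**Figure D3:**
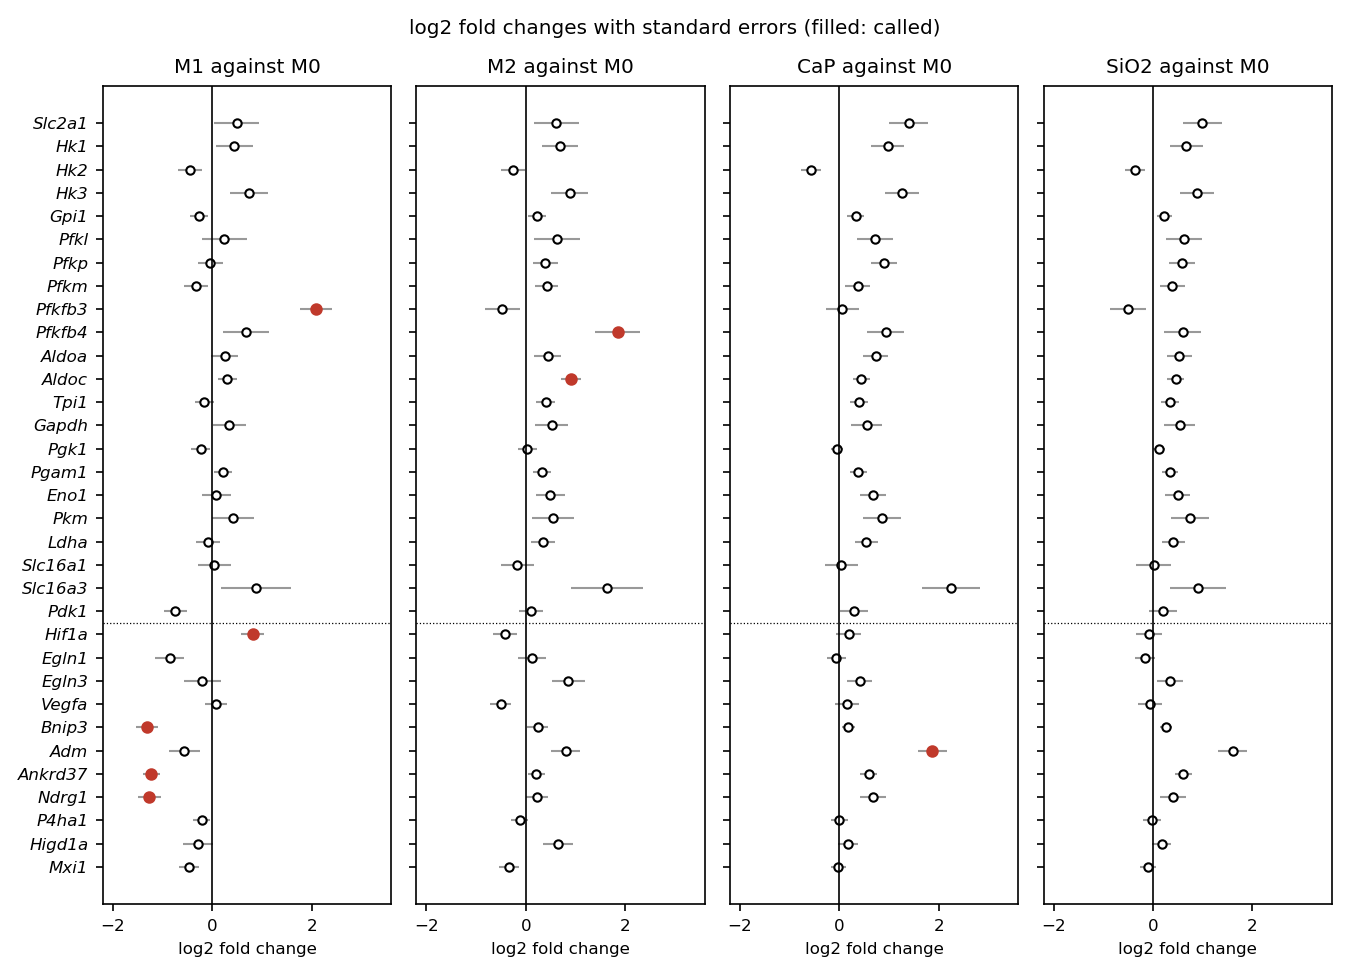
The log2 fold change (x axis) of the 33 genes (y axis) in 4 comparisons with M0. Bars are standard errors derived from the F value of the test. DEGs are filled red points and all others are open points. Above 0 lie 28 of 33 points in the CaP panel and 26 in each of the M2 and SiO2 panels. In the CaP panel only *Adm* is filled, and in the M1 panel 2 of the 11 HIF genes below the dotted line lie above 0.

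With CaP microrods, *Adm* was the only DEG among the 33 genes, beside 0.421% of the 16621 genes tested in the model of the 9 M0 and rod libraries. It was higher (0.289% of all genes were higher and 0.132% lower). *Adm* read 10.2, 18.7 and 9.61 CPM in M0, 46.5, 37.8 and 57.1 CPM with CaP rods and 42.7, 30.0 and 44.3 CPM with SiO2 rods. Every rod library was above every M0 library, and the 2 rod groups overlapped each other. The log2 fold change was 1.87 with CaP rods (SE 0.29, edgeR adjusted p = 0.0323) and 1.60 with SiO2 rods (SE 0.29, edgeR adjusted p = 0.112).

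The edgeR adjusted p of *Adm* with CaP rods was 0.187 without M0 replicate 1, 0.124 without M0 replicate 3, 0.0613 without CaP replicate 2 and 0.172 without CaP replicate 3. It was below 0.05 in the other 2 such fits and with DESeq2 (adjusted p = 1.25e-06). With SiO2 rods *Adm* was a DEG by DESeq2 (adjusted p = 0.000252) and in the model of all 15 libraries (edgeR adjusted p = 0.0450). A DEG call for CaP and none for SiO2 is no difference between them, and the direct comparison of the rods gave an edgeR adjusted p of 1.00 for *Adm*.

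The glycolysis genes as a group were higher on average with CaP rods without reaching the threshold. Their median log2 fold change was 0.54, with 20 of 22 above 0, against a median of 0.06 over all genes. With SiO2 rods 20 of the 22 were above 0 too, and in M2 19, all against the same M0 libraries. With the offset for GC content and transcript length described below, the median with CaP rods was 0.37, beside 0.01 over all genes. An unadjusted p below 0.05 was reached by 13 of the 22, and by 2983 of all 16621 genes. *Slc16a3* read 71.8, 147 and 79.5 CPM in M0 and 129, 484 and 798 CPM with CaP rods (log2 fold change 2.24, SE 0.58, edgeR adjusted p = 0.124). *Slc2a1*, the basal glucose transporter, read 93.8, 284 and 175 CPM in M0 and 287, 550.5 and 614 CPM with CaP rods (log2 fold change 1.39, SE 0.39, edgeR adjusted p = 0.140). The lowest CaP library, replicate 1, overlapped M0 for *Slc16a3* and lay just above M0 for *Slc2a1*.

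The hexokinases trap glucose in the cell, and none of the 3 was a DEG with CaP rods. *Hk3* (1.26, SE 0.35, edgeR adjusted p = 0.133) and *Hk1* (0.97, SE 0.33, 0.182) had means above and *Hk2* (-0.57, SE 0.20, 0.188) a mean below that of M0, and all 3 overlapped M0. *Pfkp* (0.89), *Pfkfb4* (0.93), *Pkm* (0.85), *Aldoa* (0.73), *Pfkl* (0.71), *Eno1* (0.67), *Gapdh* (0.55) and *Ldha* (0.54) had log2 fold changes above 0.5 with edgeR adjusted p-values from 0.143 to 0.384. Among the HIF genes, *Ndrg1* (0.68, edgeR adjusted p = 0.219) and *Ankrd37* (0.59, 0.140) did too. *Hif1a* was at 14.5 ± 3.93 CPM with CaP rods, 12.0 ± 1.04 with SiO2 rods and 12.5 ± 3.04 in M0.

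These values turned on CaP replicate 1. Without it 7 genes were DEGs, namely *Adm*, *Hk1*, *Hk3*, *Ndrg1*, *Pfkfb4*, *Pfkp* and *Slc16a3*, all higher with CaP rods, while all DEGs numbered 665 in place of 70. DESeq2 on all 9 libraries called 5 of the 33, namely *Adm*, *Hk3*, *Pfkp*, *Slc16a3* and *Slc2a1*, and 673 genes in all. Without M0 replicate 2, *Adm* and *Aldoa* were DEGs (338 in all). Without M0 replicate 1, M0 replicate 3, CaP replicate 2 or CaP replicate 3 none of the 33 was (13, 25, 25 and 21 in all).

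With SiO2 microrods none of the 33 genes was a DEG by edgeR, beside 0.0602% of all genes (0.0541% higher and 0.00602% lower). An unadjusted p below 0.05 was reached by 6 of the 33 and by 1542 of all 16621 genes, and DESeq2 called 1, *Adm*. The median log2 fold change was 0.39, beside -0.02 over all genes, with 0.48 for the glycolysis genes and 0.17 for the HIF genes. *Slc2a1* (0.99, SE 0.39, edgeR adjusted p = 0.492), *Hk3* (0.89, SE 0.34, 0.487), *Pkm* (0.75, SE 0.38, 0.581) and *Ankrd37* (0.61, SE 0.17, 0.339) were among those with the higher values. For *Ankrd37* all SiO2 libraries (261, 236 and 249.6 CPM) lay above all M0 libraries, as did all CaP libraries (268, 217 and 249.6 CPM). The SiO2 libraries of *Slc2a1* (lowest 300 against highest M0 284 CPM) and *Hk3* (82.4 against 61.7 CPM) also lay above M0. Those of *Pkm* overlapped M0. In either direction, 13 of the 33 genes did not overlap M0 with SiO2 rods and 7 with CaP rods. The share of all genes without overlap was not counted, so these numbers cannot be weighed.

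Between the rod types none of the 33 genes differed by edgeR, beside 0.0241% of all genes (0.0180% higher with CaP and 0.00602% lower). An unadjusted p below 0.05 was reached by 1 of the 33 and 311 of all genes, and DESeq2 called none. That gene was *Slc16a3*, with 177, 258 and 124 CPM with SiO2 rods beside the 129, 484 and 798 CPM with CaP rods (log2 fold change 1.34, SE 0.56, edgeR adjusted p = 1.00). The median log2 fold change over the 33 genes was 0.09, beside 0.03 over all genes. The lowest CaP library lay among the SiO2 libraries, so the values of *Slc16a3* were set by CaP replicates 2 and 3.

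Within enzyme families the make-up was read as each gene's share of the family's CPM per kb, as a description without a test. *Hk2*, the inducible hexokinase, made up 71.1% ± 9.76 (SD, n = 3) of the hexokinase mRNA in M0, 53.9% ± 14.6 in M1, 55.0% ± 13.7 in M2, 44.9% ± 13.7 with CaP rods and 52.3% ± 6.05 with SiO2 rods. The share of *Hk3*, the myeloid form, was 21.8% ± 7.37 in M0 and 43.4% ± 11.2 with CaP rods. All 6 rod libraries had an *Hk2* share of 33.2% to 60.1%, and the M0 libraries had 60.8% to 80.3%. *Pfkfb3* made up 21.0% ± 4.05 of its pair in M0, 43.7% ± 15.7 in M1, 4.31% ± 1.16 in M2, 13.1% ± 2.58 with CaP rods and 10.7% ± 3.56 with SiO2 rods. The M1 libraries (27.9% to 59.2%) lay above and the M2 libraries (3.02% to 5.26%) below those of all other groups. The 3.02% of M2 replicate 2 rested on 3 counts of *Pfkfb3*, so the place of that library is uncertain.

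*Slc16a3* made up 61.9% ± 11.7 of the 2 lactate transporters in M0 and 87.0% ± 4.25 with CaP rods, while *Slc16a1*, the other, read 58.0 ± 7.80 and 60.0 ± 28.6 CPM. Among the phosphofructokinases the liver form *Pfkl* made up 60.7% to 67.8% on average in every group and *Pfkm* 1.96% to 2.82%. *Aldoa* made up 54.9% to 67.2% of the aldolases on average.

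**Figure D4:**
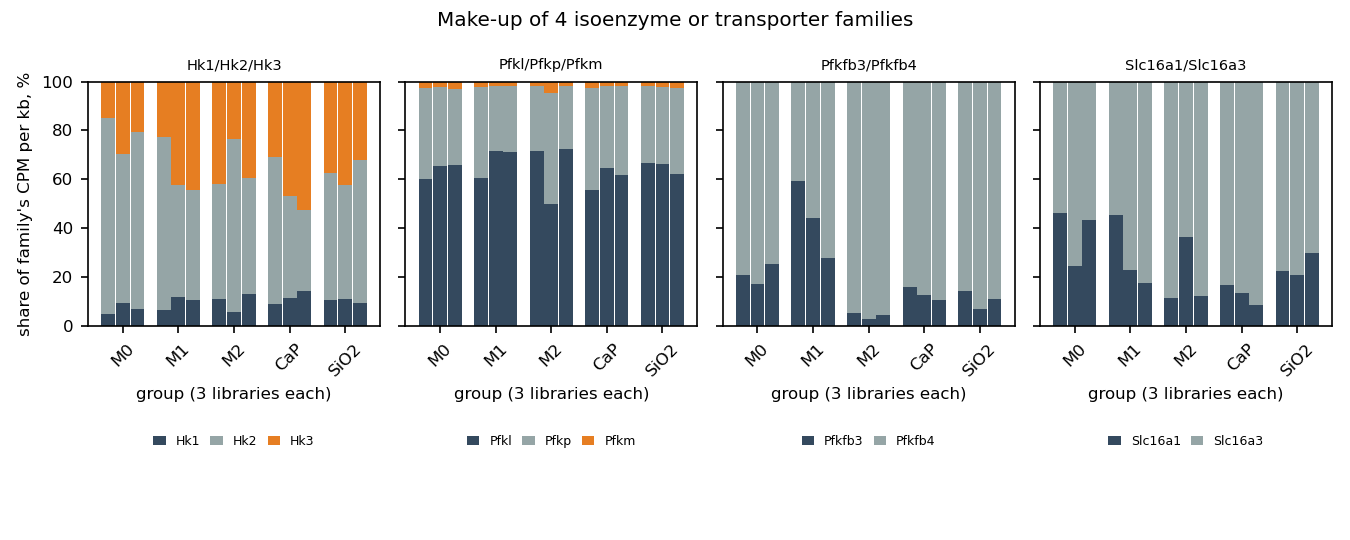
Share of each gene in its family's CPM per kb (y axis, percent) in each library (bars, 3 per group) for the hexokinases, the phosphofructokinases, *Pfkfb3* and *Pfkfb4*, and the lactate transporters. *Hk2* fills 60.8% to 80.3% of the hexokinase bars in M0 and 33.2% to 60.1% in the rod groups, and *Pfkfb3* is largest in M1 and smallest in M2.

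Libraries of the same group differed in the glycolysis genes as a whole. M0 replicate 1 was the lowest of its group in 19 of the 22 glycolysis genes, M1 replicate 1 in 19, M2 replicate 2 in 15, CaP replicate 1 in 20 and SiO2 replicate 3 in 14. *Gapdh* shows the size of it, with 699, 1597 and 1510.3 CPM in M0, 1139, 1718 and 1965 in M1, 2290.3, 1976 and 1180.0 in M2, 1317, 2037 and 2235 with CaP rods and 1743, 2229 and 1567 with SiO2 rods. The first 4 of these libraries also had the lowest mean GC content of counted transcripts in their groups, at 49.79%, 49.99%, 50.19% and 50.47%, against 50.10% to 51.02% in the other libraries, SiO2 replicate 3 (50.50%, as in replicate 2) included.

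Across the 33 genes, the correlation of GC content with the deviation from the group mean was -0.59 in M0 replicate 1, -0.54 in M1 replicate 1, -0.37 in M2 replicate 2 and -0.19 in CaP replicate 1, and across 15111 genes it was -0.22, -0.39, -0.18 and -0.14. In SiO2 replicate 3, whose mean GC content was not below that of replicate 2, it was -0.41 across the 33 genes and -0.07 across the 15111. Genes of 1 library share its depth and base composition and are not independent. With each library's trend on GC content and transcript length as an offset, an alternative chosen after seeing this, the median log2 fold change of the 33 genes was -0.14 in M1, 0.21 in M2, 0.32 with CaP rods and 0.25 with SiO2 rods. The DEGs against M0 then were those of the main fit together with *Pdk1* and *Pfkm*, both lower in M1. The part of GC content in the other values was not tested.

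Glycolytic enzymes have many processed copies in the mouse genome, and 11 of the 33 genes had near-identical copies in the count table, here genes that share at least 100 stretches of 31 bases with the gene and at least 10% of their own. The 127 copies of *Gapdh* took 75.1% of the counts of the gene and its copies together, the 4 of *Pgk1* 45.7%, the 2 of *Aldoa* 35.9% and the 5 of *Eno1* 35.5%. *Pgam1* (31.6%), *Bnip3* (30.7%), *Pkm* (29.1%), *Higd1a* (21.2%), *Ldha* (14.6%), *Tpi1* (8.50%) and *Gpi1* (6.63%) followed. The levels above are those of the named gene alone and are uncertain by this much.

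The share given to copies differed by library. It was highest in M2 replicate 3, the library with the most counts, for all 11 genes. For *Ldha* it ran from 2.14% in M2 replicate 2 to 22.4% in M2 replicate 3, and for *Aldoa* from 11.9% to 47.2% in the same libraries. With the copies added to their genes, a further alternative chosen after seeing the data, the DEGs among the 33 were the same in all 4 comparisons with M0, and *Tpi1* and *Higd1a* joined those lower in M1 than in M2. Exons of *Pfkm*, *Pfkp* and *Hk1* overlap *Senp1*, *Pitrm1* and *Hk1os* on the other strand, which held 2491, 10049 and 1844 counts beside 4228, 90901 and 11975 of the gene, and none of these 3 neighbours was a DEG by edgeR in any of the 6 comparisons.

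**Figure D5:**
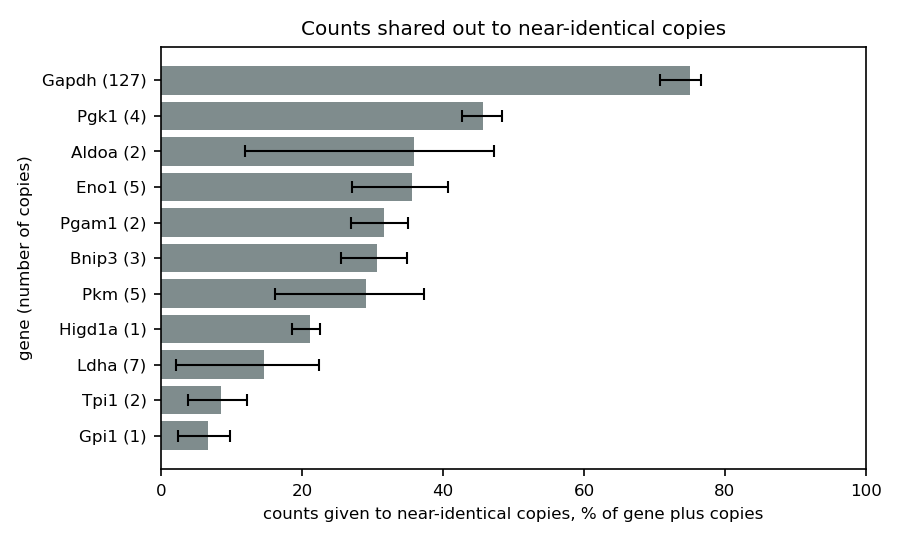
Counts given to near-identical copies as a percentage of the counts of a gene and its copies (x axis) for the 11 genes with such copies (y axis, number of copies in brackets), with bars for all 15 libraries together and whiskers for the lowest and highest library. *Gapdh* is at 75.1% with little spread, whereas *Ldha* runs from 2.14% to 22.4%.

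Other genes of these pathways were read from 4 lists. Of 30 other HIF-1 targets 26 were tested, and 12 were DEGs in M1, with 6 higher and 6 lower, beside 14.1% of all genes (9.70% higher and 4.35% lower). Their median log2 fold change was 0.17, beside -0.01 over all genes. *Nos2*, the inducible nitric oxide synthase and 1 of the M1 markers above, had no count in M0 and 6.20 ± 2.17 CPM in M1, at least 29.9-fold higher with 3 counts per M0 library as the floor. The glycogen synthase *Gys1* was at 238 ± 11.1 against 82.6 ± 14.2 CPM (log2 fold change 1.53, edgeR adjusted p = 0.000300). *Angptl4*, an inhibitor of lipoprotein lipase, was lower at 7.29 ± 0.684 against 18.0 ± 2.95 CPM (log2 fold change -1.29, edgeR adjusted p = 0.000568). These 3 held in all 6 fits without 1 library.

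In M2, 3 of those 26 were DEGs against M0, beside 4.13% of all genes, with *Ddit4*, an inhibitor of mTORC1, higher (9.86 ± 5.79 against 2.12 ± 0.426 CPM, log2 fold change 2.24, edgeR adjusted p = 0.0380), *Ero1a*, which makes disulfide bonds in the endoplasmic reticulum, higher (284 ± 46.3 against 173 ± 21.5 CPM, 0.72, 0.0279) and the growth factor *Pdgfb* lower (7.71 ± 0.117 against 18.3 ± 2.53 CPM, -1.24, 0.000872). The calls were lost for *Ddit4* without M0 replicates 1, 2 or 3 or M2 replicates 1 or 3 (edgeR adjusted p = 0.131, 0.0967, 0.107, 0.0825 and 0.197) and for *Ero1a* without M0 replicates 1 or 2 or M2 replicate 1 (0.120, 0.0837 and 0.109). With CaP rods *Ero1a* was the only DEG among 25 tested, beside 0.421% of all genes, at 401 ± 68.1 CPM (log2 fold change 1.21, edgeR adjusted p = 0.0175), and the call was lost without M0 replicates 1 or 3 or CaP replicates 2 or 3 (0.111, 0.0504, 0.0761 and 0.105). The median log2 fold change of the list was 0.27 in M2, 0.49 with CaP rods and 0.30 with SiO2 rods, beside 0.07, 0.06 and -0.02 over all genes. DESeq2 called 7 of the 25 with CaP rods. With SiO2 rods edgeR called 0 of the 25, with 7 at an unadjusted p below 0.05 and 4 DEGs by DESeq2, and between the rod types 0, with 1 and 0. Between M1 and M2, 13 were DEGs, 5 higher and 8 lower in M1, beside 16.1% of all genes (10.6% higher and 5.47% lower). Among those with the largest changes were *Nos2*, *Pdgfb* (log2 fold change 1.53, edgeR adjusted p = 3.12e-05) and the collagen hydroxylase subunit *P4ha2* (-1.26, 0.0372), whose call was lost without M1 replicates 1 or 2 or M2 replicate 1 (0.144, 0.102 and 0.149).

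Of 24 other glycolysis genes 15 were tested, and 6 were DEGs in M1 against M0, 5 higher and 1 lower, beside 14.1% of all genes. Their median log2 fold change was 0.49, beside -0.01 over all genes. The 4 with the largest changes were *Pfkfb1* (3.42 ± 0.619 against 1.57 ± 0.290 CPM, log2 fold change 1.14, edgeR adjusted p = 0.0431), *Tigar*, which degrades fructose 2,6-bisphosphate (63.4 ± 6.76 against 31.8 ± 3.22 CPM, 1.00, 0.000765), *Pgm2* (23.1 ± 1.21 against 11.9 ± 2.85 CPM, 0.98, 0.0221) and the muscle enolase *Eno3* (33.7 ± 2.28 against 61.5 ± 6.44 CPM, -0.87, 0.00187). *Tigar* and *Eno3* held in all 6 fits without 1 library. *Pfkfb1* lost its call in each of the 6 (edgeR adjusted p = 0.0589 to 0.194) and *Pgm2* without M0 replicate 1, M1 replicate 2 or M1 replicate 3 (0.108, 0.0763 and 0.0548). Between M1 and M2, 4 were DEGs, beside 16.1% of all genes, with *Tigar* (log2 fold change 1.11, edgeR adjusted p = 0.000243) and *Bpgm* (0.98, 0.00835) higher in M1 and *Eno3* (-1.11, 0.000206) and *Pgm1* (-0.90, 0.00793) lower, and *Bpgm* lost its call without M2 replicate 3 (0.0603). In M2, with CaP rods, with SiO2 rods and between the rod types edgeR called 0 of the 15, with 4, 4, 2 and 0 at an unadjusted p below 0.05 and 2, 1, 0 and 0 DEGs by DESeq2.

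Of 12 regulators of the HIF pathway 10 were tested, and 1 was a DEG in M1 and 1 in M2, beside 14.1% and 4.13% of all genes, with medians of the log2 fold change of -0.07 and 0.07 beside -0.01 and 0.07. *Cited2*, which competes with HIF-1α for its coactivators, was lower in M1 (21.8 ± 3.79 against 35.4 ± 4.83 CPM, log2 fold change -0.71, edgeR adjusted p = 0.0488), a call kept only in the fit without M1 replicate 1 and otherwise lost (0.0594 to 0.172). *Vhl*, which takes hydroxylated HIF-1α to degradation, was higher in M2 (36.7 ± 9.26 against 17.1 ± 2.87 CPM, log2 fold change 1.11, edgeR adjusted p = 0.0156), a call lost without M0 replicate 1, M0 replicate 3 or M2 replicate 1 (0.0936, 0.0551 and 0.0793). Its mean was above that of M0 with the rods too, at 32.6 ± 8.85 CPM for CaP and 29.6 ± 1.56 CPM for SiO2, without an edgeR call. Between M1 and M2, 3 of the 10 were DEGs, beside 16.1% of all genes. *Cited2* (log2 fold change -1.17, edgeR adjusted p = 0.00248) and *Vhl* (-1.16, 0.00384) were lower in M1, and the coactivator *Crebbp* (0.65, 0.0423) was higher but lost its call in each of the 6 fits without 1 library (0.0627 to 0.167). With CaP rods, with SiO2 rods and between the rod types edgeR called 0 of the 10, with 4, 2 and 0 at an unadjusted p below 0.05 and 2, 0 and 0 DEGs by DESeq2.

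Of 8 genes of the pentose phosphate pathway, which branches off glycolysis, *Rpe* was the only DEG in M1 against M0, beside 14.1% of all genes (46.4 against 25.6 CPM, log2 fold change 0.87, edgeR adjusted p = 0.0274), and the 8 had a median log2 fold change of 0.33 beside -0.01. It was also higher in M1 than in M2 (0.89, edgeR adjusted p = 0.0210). The first call was kept only in the fit without M1 replicate 3 (otherwise 0.0518 to 0.113) and the second was lost without M1 replicate 1, M1 replicate 2 or M2 replicate 2 (0.0679, 0.0698 and 0.0671). In M2, with CaP rods, with SiO2 rods and between the rod types edgeR called 0 of the 8, with 2, 1, 0 and 0 at an unadjusted p below 0.05 and 0 DEGs by DESeq2.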

How the data were processed

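Poly-A RNA of 15 wells was made into Smart-seq2 libraries, which use no strand mark and no molecular identifiers. The authors processed paired-end reads with the nf-core/rnaseq pipeline (STAR and Salmon, Ensembl annotation, GRCm39 per the labels) and deposited whole-number counts per gene without normalization, which may be rounded estimates. All columns were matched to samples by name. The analysis ran under R 4.3.3, with edgeR 4.0.16 as the main tool (filterByExpr by group, TMM, glmQLFit) and DESeq2 1.42.0 as an alternative. M1 and M2 were compared in a model of all 15 libraries (16654 genes) and the rods in a model of the 9 M0 and rod libraries (16621 genes). P-values were adjusted over all genes tested. Each SE is the size of the log2 fold change over the square root of the test's F value, not a standard error taken from the fit. An exact permutation test of 3 values against 3 has 0.1 as its smallest two-sided p. Names, transcript lengths and GC content came from another annotation release, which named 51487 identifiers.

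The genes and lists were chosen with earlier results of these data known. All 33 genes are named, and from each list up to 4 DEGs per comparison with the largest change, of which 1 gene is not reported here. The list HIF pathway regulators holds ARNT, VHL, hydroxylases and coactivators, and the lists of other HIF-1 targets, other glycolysis genes and pentose phosphate genes hold no gene of the 33. Alternatives were DESeq2, its size factors in edgeR, no filter on low counts, a replicate block, other libraries in the model and each library left out. The offset for GC content and length and the sum of near-identical copies were added after seeing the data. Whether replicate numbers pair the samples was checked by correlating deviations from the group means. Same-numbered M0 and M1 libraries gave 0.206 to 0.292 and different-numbered ones -0.313 to 0.0676, so a block was also fitted to these 6 libraries alone, after seeing this. In the other comparisons at least 1 same-numbered pair was below 0.1. M2 and SiO2, which were not compared, gave 0.128 to 0.506 for same numbers and -0.619 to 0.540 for different ones. Over all groups the median was -0.00509 for 30 same-numbered pairs and 0.0049 for 60 different-numbered pairs. The numbers thus showed no pairing over the series as a whole. The models were tested on simulated counts with known changes. Counting limits cover counting error only.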

Additional observations from a re-analysis of the deposited data

How the results depend on the processing

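Of the 198 log2 fold changes of the 33 genes, the 72 beyond 0.5 in either direction were followed through 947 alternatives in all, of which 856 kept direction and side of the threshold, 38 lost and 53 gained a call, and 0 changed direction. Among the other 126, 50 changed direction under at least 1 alternative, each within 0.4 of 0 in the main fit and none of them called when it did. The number of the 33 genes called (main value first) was 9 for M1 against M2 and 14 with DESeq2, 2 for M2 against M0 with 4 without a filter and 0 in the model of 6 libraries, 1 for CaP against M0 with 5 by DESeq2, 3 without a filter and 0 with the replicate block, and 0 for SiO2 against M0 with 1 by DESeq2 and 1 in the 15-library model. With 1 library left out it was 4 to 5 for M1 against M0, 0 to 3 for M2, 6 to 13 for M1 against M2, 0 to 7 for CaP and 0 in each such fit for SiO2 and for the rods against each other.

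All DEGs numbered 2340 for M1 against M0 (1512 to 2066 with 1 library left out), 688 for M2 (316 to 1360), 2679 for M1 against M2 (1767 to 4270), 70 for CaP (13 to 665), 10 for SiO2 (0 to 5) and 4 between the rods (1 to 3). By DESeq2 they were 673 for CaP (308 higher and 365 lower, against 48 and 22), 134 for SiO2 and 16 between the rods. Without a filter they were 3396 for M1, 1138 for M2, 4397 for M1 against M2, 176, 17 and 8. With other libraries in the model they were 97 for M2, 1377 for M1 against M2, 109 for CaP and 44 for SiO2. With the offset for GC content and length they were 161 for CaP and 31 for SiO2. The cause of these shifts was not tested.

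Same-numbered libraries deviated together weakly in M0 and M1 (correlations of 0.206 to 0.292) but not in the other groups compared. Over all pairs of groups they did so no more than different-numbered ones (median -0.00509 against 0.0049). The block therefore rests on a weak pattern in 1 pair of groups. With the replicate block, the DEGs were 2122 for M1 against M0, 502 for M2, 2355 for M1 against M2, 28 for CaP, 1 for SiO2 and 1 between the rods. *Hif1a* (edgeR adjusted p = 0.0666) and *Adm* with CaP rods (0.0949) were then no longer called, and no other call among the 33 changed. With the block on the 6 M0 and M1 libraries alone, 2594 genes were DEGs. The 2 shallowest libraries, M0 replicate 3 and M2 replicate 2, limit the genes of few counts most, *Pfkfb3* above all.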
